A study of Mus musculus with 4 samples.

Results

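Col2a1 encodes the alpha chain of type II collagen, the main fibril of cartilage matrix. The gene (ENSMUSG00000022483.9) lies on the minus strand at chr15:97806033-97835155 in NCBIM37 (mm9) and spans 29123 bases in both NCBIM37 and GRCm38 (mm10). Its main transcript has 54 exons. The region described here is the gene body plus 100 kb on each side, 229.1 kb in all. Its members are the ATAC-Seq peaks with a summit in that region, 1 per interval. There were 135 in the 4 libraries. Cho replicate 1 had 20 of its 76242 peaks there, Cho replicate 2 had 51 of 148330, WT had 26 of 90971 and the deletion had 38 of 169591. Distances are from the Col2a1 TSS (transcription start site), negative upstream and positive into the gene and past its end.

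ATAC-Seq maps open chromatin with a transposase that cuts and tags accessible DNA. All 4 libraries came from primary chondrocytes of mouse rib cartilage. Per the study methods, the cells were taken from newborn mice of either sex and used within 2 passages. The 2 Cho libraries carry no genotype label. WT had 1 library, and E160(delta/delta);E308(delta/delta), called the deletion, had 1 library. E160 and E308 are elements upstream of Sox9, removed from both alleles by Cas9 editing of C57BL/6J embryos, so the deletions were not limited to any cell type. WT and deletion mice came from intercrosses of heterozygotes. With 1 library per genotype, WT against deletion compares libraries, not genotypes, and no p-value is given. The study methods call the ATAC-Seq replicates biological, and which animals the Cho libraries came from is not given in the sources used here. Where 4 values follow each other unnamed, their order is Cho replicate 1, Cho replicate 2, WT, deletion. Where there are 3, Cho replicate 1 is left out.

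As background, Sox9 is the transcription factor that drives cartilage differentiation, and Col2a1 is a direct target of it. Sox9 binds an enhancer in the first intron of Col2a1, together with Sox5 and Sox6, and further intronic and upstream elements have been described. Transcription of Col2a1 is very high in chondrocytes, where trimers of the chain form fibrils together with type IX and type XI collagens.

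Cho replicate 1 stood apart in how its list was made. Its peaks were set against 1 constant background, while the other 3 libraries used a local background for each peak. Fold enrichments in it and in the others are therefore ratios to different backgrounds. It also had a peak within 1 kb of the TSS at 3 of 6 chondrocyte markers, against 5 of 6 in each other library; Acan and Matn1 had none in it, and Comp had none in any library. Over all protein-coding genes the share with such a peak was 58.6%, 64.7%, 62.0% and 67.8%.

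The sequences below are the sites on which the results turn, read from NCBIM37 on the minus strand, 5′ to 3′ along the gene. The promoter entry is the 250 bases before the TSS, at chr15:97835156-97835405. The others reach 100 bases to each side of a summit, that of Cho replicate 1 for +2.8 kb at chr15:97832322-97832522 and that of WT for the rest. These lie at chr15:97831722-97831922 for +3.3 kb, chr15:97827455-97827655 for +7.6 kb, chr15:97823439-97823639 for +11.6 kb, chr15:97844832-97845032 for -9.8 kb and chr15:97863873-97864073 for -28.8 kb. None overlapped an annotated exon. Capitals mark matches to the motifs searched, and at +11.6 kb a run of 17 bases that occurs at 2 places. A direct repeat as long is in 1.9% of all WT windows.
promoter: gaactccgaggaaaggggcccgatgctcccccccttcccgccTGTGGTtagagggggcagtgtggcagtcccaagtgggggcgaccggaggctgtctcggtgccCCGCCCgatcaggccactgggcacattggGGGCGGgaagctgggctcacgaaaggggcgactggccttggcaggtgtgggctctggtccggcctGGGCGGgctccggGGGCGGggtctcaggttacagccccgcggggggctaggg
intron 1, +2.8 kb: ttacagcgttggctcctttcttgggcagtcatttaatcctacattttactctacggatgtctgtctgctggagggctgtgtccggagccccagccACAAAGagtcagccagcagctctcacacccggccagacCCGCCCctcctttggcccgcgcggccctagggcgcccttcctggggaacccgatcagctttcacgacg
intron 1, +3.3 kb: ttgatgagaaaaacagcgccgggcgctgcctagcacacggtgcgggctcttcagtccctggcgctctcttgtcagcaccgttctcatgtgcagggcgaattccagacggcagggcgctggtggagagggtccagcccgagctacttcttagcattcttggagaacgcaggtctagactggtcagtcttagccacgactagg
intron 8, +7.6 kb: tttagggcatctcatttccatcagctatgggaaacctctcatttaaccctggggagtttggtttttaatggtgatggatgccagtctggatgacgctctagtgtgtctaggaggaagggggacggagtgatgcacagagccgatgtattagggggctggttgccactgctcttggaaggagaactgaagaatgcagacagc
intron 16, +11.6 kb: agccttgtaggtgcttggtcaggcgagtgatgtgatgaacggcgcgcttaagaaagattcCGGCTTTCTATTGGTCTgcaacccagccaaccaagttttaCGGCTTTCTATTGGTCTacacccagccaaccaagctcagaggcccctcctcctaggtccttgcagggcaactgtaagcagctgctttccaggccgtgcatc
upstream, -9.8 kb: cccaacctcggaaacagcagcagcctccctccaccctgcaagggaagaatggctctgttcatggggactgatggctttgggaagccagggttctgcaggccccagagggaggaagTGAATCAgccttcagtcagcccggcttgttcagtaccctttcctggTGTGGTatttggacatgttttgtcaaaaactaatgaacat
upstream, -28.8 kb: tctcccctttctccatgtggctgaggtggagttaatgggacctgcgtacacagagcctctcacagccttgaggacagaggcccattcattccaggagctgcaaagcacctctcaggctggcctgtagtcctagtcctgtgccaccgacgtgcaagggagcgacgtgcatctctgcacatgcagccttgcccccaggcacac

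The promoter was rich in GC. Its 250 bases held 72.0% G and C, the 93.6th percentile of the same stretch before 32851 RefSeq starts of GRCm38, whose median was 52.4%. It held 4 GC boxes (GGGCGG, on either strand), a motif found in 32.7% of those stretches, and 1 Runx motif (TGTGGT, 14%). It held no TATAAA (12.4%), no AP-1 motif (TGANTCA, 6.75%), no Sox core (ACAATG or ACAAAG, 25.2%) and no inverted Sox pair, ACAAT and ATTGT with 3, 4 or 5 bases between them (0.0365%, 0.0274% and 0.0304%). All motifs were searched on both strands. The +2.8 kb site held 1 Sox core motif and 1 GC box. The -9.8 kb site held 1 AP-1 motif and 1 Runx motif. The windows at +3.3, +7.6, +11.6 and -28.8 kb held none of the letters searched.

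Over all 26 WT sites of the region, motif counts stand beside the shares in 90969 WT peaks of the genome. The Sox core was in 4 of 26 windows, against 17.7% of all WT peaks. AP-1 was in 2 (19.4%), the GC box in 3 (18.5%), Runx in 4 (19.9%) and TATAAA in 2 (7.09%). Inverted Sox pairs were in 0 of 26, and in 0.011%, 0.0055% and 0.0176% of all WT peaks. None of the 4 WT windows in the gene body held any of these motifs. The window at the promoter peak leaves out the 250 bases before the TSS, where GC boxes and a Runx motif were found. The median GC content of the 26 windows was 54.7%, from 44.3% to 70.1%, and that of all WT windows was 51.2%.

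In Cho replicate 2, WT and the deletion, the gene body of Col2a1 held tall peaks on a raised background, a height that fold enrichment did not show. The list of Cho replicate 1 has no local background, so none could be read at its peaks. It called peaks down to 6 tags, 4.39 times its constant background, a floor below the local backgrounds given next. Peaks covered 8.23% of the gene body in it, so no rise of that size over the whole gene body shows in this list. The 6 gene-body peaks of Cho replicate 1 had pileups of 6 to 28 tags, at a median percentile of 26.7 in its list. A MACS2 peak has a summit pileup, the number of tags stacked at its highest base, and a background, the number expected there. Both were solved from the deposited values. At the 18 gene-body peaks of Cho replicate 2 the local background was 20.2 to 31.4 times that of the library, with a median of 23.5. At the 4 WT peaks it was 14.2 to 18.6 times, with a median of 17.9. At the 8 deletion peaks it was 15.5 to 20.3 times, with a median of 18.4.

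This placed Col2a1 near the top of the genes that were ranked. Among genes of at least 10 kb with 3 or more gene-body peaks, its median local background ranked at percentile 99.94 of 6430 genes in Cho replicate 2. In WT it was at 99.84 of 4491 genes, and in the deletion at 99.93 of 7013. The median gene was at 1.35, 1.69 and 1.41 times the library background. This ranking was added after the values had been seen.

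**Figure D1:**
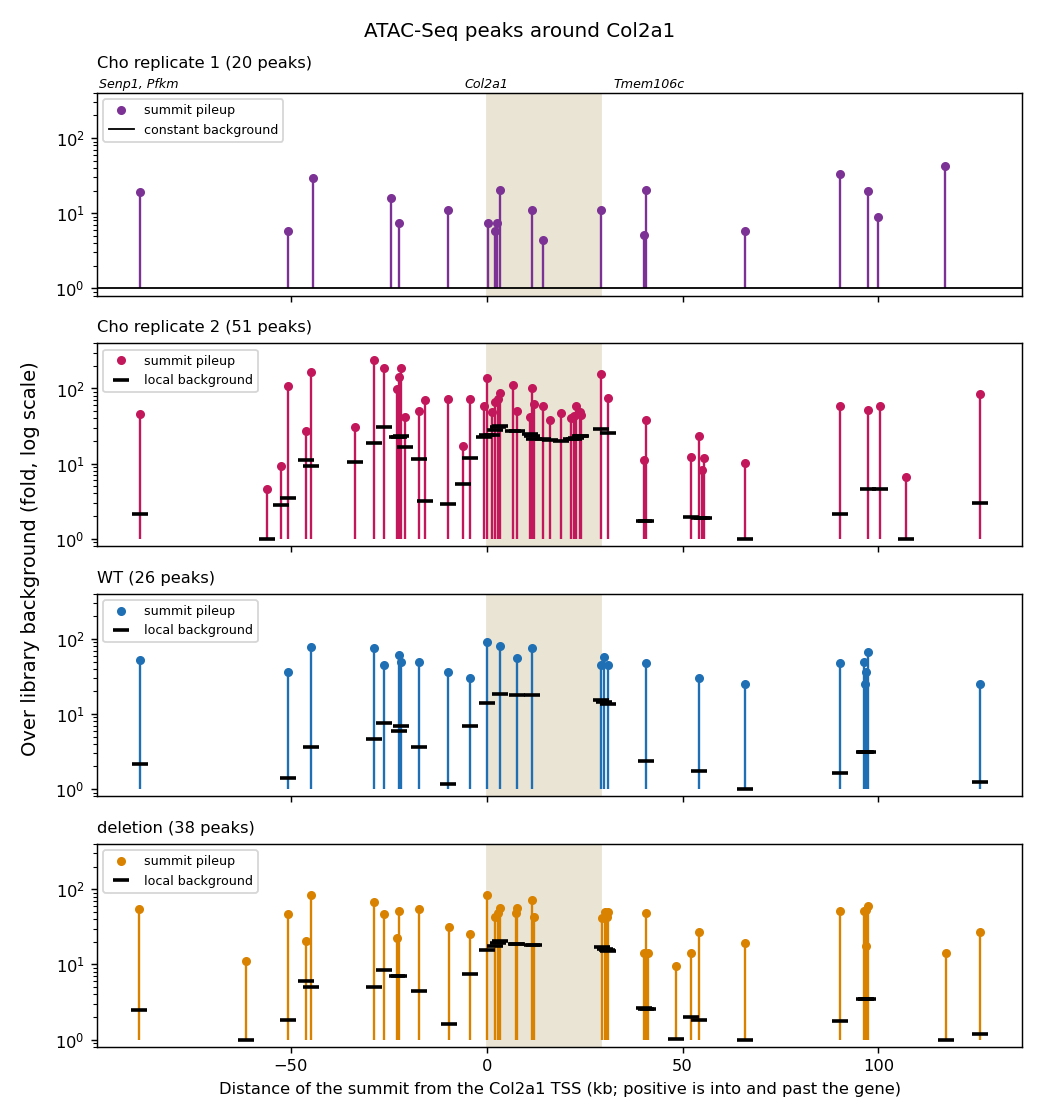
Summit pileup (points) and background (black marks) of each peak, both as fold over the library background on a log scale, against distance from the Col2a1 TSS in kb, 1 panel per library; shading marks the gene body. In Cho replicate 2, WT and the deletion the background rises over the gene body, to 31.4, 18.6 and 20.3 times, while Cho replicate 1 has 1 constant background.

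The 2 measures gave opposite ranks, which follows in part from how peaks are called. A peak must exceed its local background to be called, so a high background requires a high pileup and lowers the ratio. In WT, the 4 gene-body peaks had a median percentile of 3.05 by fold enrichment among all WT peaks and 87.4 by summit pileup. In Cho replicate 2 the medians were 0.268 and 85.5, and in the deletion 0.103 and 86.6. Fold enrichments of the gene-body peaks were 1.65 to 5.71, 2.85 to 5.56 and 2.30 to 5.04 in these 3 libraries, with Cho replicate 2 named first. Their pileups were 37.8 to 140.0 times, 55.5 to 91.5 times and 43.1 to 84.6 times the library background. In Cho replicate 1, where both measures rank alike, the 6 gene-body peaks ran from percentile 1.16 to 78.8, with a median of 26.7, far below the pileup ranks in the other libraries.

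**Figure D2:**
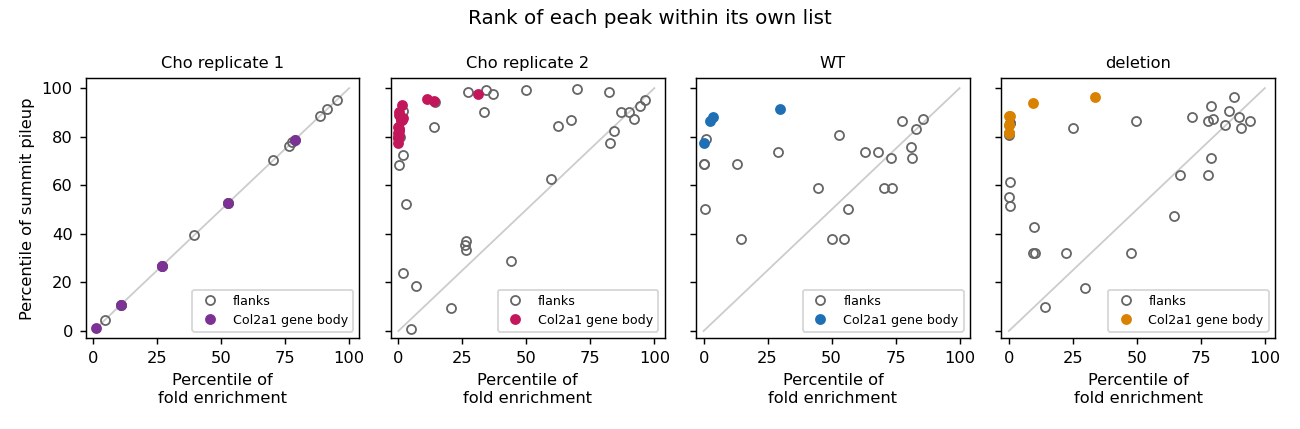
Percentile of each Col2a1-region peak within its own list by summit pileup (vertical) against fold enrichment (horizontal), 1 panel per library; filled points are in the gene body and open points in the flanks. Gene-body points of Cho replicate 2, WT and the deletion lie at the upper left, at or above percentile 77.5 by pileup and at or below 33.6 by fold enrichment.

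The raised background also covered an upstream block. The limits that follow were set after the values were seen. From 5 kb upstream to 32 kb downstream of the TSS the median local background was 23.5 times that of the library in Cho replicate 2 (22 peaks), 15 times in WT (8 peaks) and 17.4 times in the deletion (13 peaks). From 20 to 5 kb upstream it was 4.27, 2.41 and 3.04 times. From 47 to 20 kb upstream it was 19.1 times in Cho replicate 2 (9 peaks), 6.01 times in WT (5 peaks) and 6.46 times in the deletion (6 peaks). Beyond these limits it was 1.76 to 2.47 times. The upstream block thus came close to the gene in Cho replicate 2, and stayed below it in WT and the deletion, a difference with no test.

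The medians of some gene lists also differed between these libraries, and those of others were close. Genes without a gene-body peak were left out, so the genes behind a median can differ between libraries. Of 5 fibril partners, the median of the highest local background in the gene body was 12.8, 4.35 and 4.55 times that of the library. Over the matrix partners with a gene-body peak, 6, 4 and 5 in number, it was 7.53, 4.22 and 4.74 times. Over the chondrocyte markers with a gene-body peak, 6, 5 and 5 with Col2a1 among them, the median was 9.87, 9.61 and 9.31 times. Sox9 alone was at 9.91, 9.61 and 10.6 times. Single markers other than Sox9 were highest in Cho replicate 2. These were Col2a1 (31.4, 18.6 and 20.3), Acan (6.59, 3.48 and 4.09), Comp (14.2, 11.3 and 9.31) and Hapln1 (9.82, 1.04 and 5.60). Matn1 was at 2.99 in Cho replicate 2 and had no gene-body peak in WT or the deletion. The 3 transcription factors were at 9.68, 7.03 and 8.32 times, and the genes of procollagen processing at 5.29, 5.58 and 4.97 times. Over the matched fibroblast and osteoblast markers with a gene-body peak, 4, 3 and 3 in number, the medians were 2.73, 6.77 and 5.84 times, and Col1a1 itself was at 4.66, 13.0 and 12.5 times. In WT the gene-body peaks of Col1a1 and Col1a2 lay within 1 kb of the TSS. All 5 matched markers of this list had a promoter peak in those 3 libraries, and 4 in Cho replicate 1. The highest value at any skeletal muscle marker was 1.19, 1.47 and 1.86 times, at any endothelial marker 1.56, 2.16 and 2.25 times, and at any epithelial marker 1.58, 1.56 and 2.30 times. Of 5 muscle markers 0, 1, 1 and 2 had a promoter peak, of 3 endothelial ones 2, 1, 2 and 2, and of 3 epithelial ones 0, 2, 1 and 2. The share over all protein-coding genes was 58.6%, 64.7%, 62.0% and 67.8%. Myog, Ckm, Myf5, Ptprc, Cdh5 and Krt14 had no promoter peak in any library. The part of these cell types in the result was not tested. Fewer cells of a type and less open chromatin per cell cannot be told apart.

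At the promoter, fold enrichments lay within a narrow range in the 4 libraries, though that of Cho replicate 1 is a ratio to a constant background. The interval covered exon 1 and the start, at chr15:97834707-97835477 in WT, and the summits lay between +0.1 and +0.3 kb. Fold enrichments were 4.65, 5.71, 5.56 and 5.04. The Cho mean was 5.18 ± 0.755 (SD, n = 2), over ratios to these unlike backgrounds. Summit pileups were 10, 274, 33 and 53, or 7.31, 140.0, 91.5 and 84.6 times the library background. By this measure the Cho mean was 73.7 ± 93.8 (SD, n = 2), so the Cho replicates lay far apart.

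The promoter was therefore low by fold enrichment in all 4 libraries, and middling to high by pileup in the 3 with a local background. Among promoters with a peak, its fold enrichment ranked at percentiles 10.2, 6.73, 6.30 and 5.77. By pileup it ranked at 10.2, 82.7, 59.5 and 72.7. In Cho replicate 1 both ranks are the same by construction, since its background is constant.

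Intron 1 held up to 4 sites. The strongest intronic site of WT by fold enrichment lay at +3.3 kb, at chr15:97831732-97831885, and was found in all 4 libraries. Its fold enrichments were 12.2, 2.75, 3.89 and 2.62. The Cho mean was 7.50 ± 6.71 (SD, n = 2), a spread almost as large as the mean. Summit pileups were 28, 171, 29 and 35, or 20.5, 87.4, 80.4 and 55.9 times the library background. The order of the Cho replicates thus turned with the measure. By percentile of pileup the 4 libraries were closer, at 78.8, 92.9, 88.3 and 88.6.

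The other intron 1 sites were not in every library. A site at +2.1 kb had a peak in Cho replicate 1 (fold enrichment 3.80, pileup 8), Cho replicate 2 (2.30, pileup 129) and the deletion (2.36, pileup 27). The +2.8 kb site was in the same 3 libraries, with fold enrichments of 4.65, 2.31 and 2.36 and pileups of 10, 140 and 30. WT had no peak at either. A site at +1.4 kb was in Cho replicate 2 alone, at a fold enrichment of 2.0.

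Further into the gene, intron 16 held the other intronic site of all 4 libraries. At +11.6 kb (WT interval chr15:97823434-97823635), fold enrichments were 6.76, 4.20, 3.71 and 3.74. Pileups were 15, 196, 27 and 45, or 11, 100.2, 74.9 and 71.9 times the library background. At +7.6 kb in intron 8, Cho replicate 1 had no peak, and the others had fold enrichments of 1.87 (pileup 99), 2.85 (20) and 2.83 (35). Intron 8 held another deletion peak at +7.4 kb (2.42), and intron 16 held peaks of Cho replicate 2 at +11.1 kb (1.65) and at +12.2 kb of Cho replicate 2 (2.83) and the deletion (2.30).

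Cho replicate 2 alone had a peak at +6.6 kb, in intron 7. In the transcript of 53 exons, which leaves out exon 2, this is intron 6. Fold enrichment was 4.04 and the pileup 218, or 111 times the library background and the 95.6th percentile of its list. This pileup was above those of the +3.3 and +11.6 kb sites in the same library, and below that of the promoter.

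In the 3′ part of the gene, peaks were called almost only in Cho replicate 2. Between +14.4 and +24.1 kb it had 8 peaks, in introns 18, 21, 29, 37, 39, 40, 41 and 42, with fold enrichments of 1.82 to 2.71. Cho replicate 1 had a peak at +14.4 kb too, with a pileup of 6, the smallest of any peak in its list. WT and the deletion had none there. Of the 19 sites of the gene body, 3 were in all 4 libraries and 10 in Cho replicate 2 alone. Of 36 gene-body peaks, 32 had a summit in an intron and 4, the promoter peaks, in exon 1. Exons make up 17.1% of the gene beyond 1 kb from the TSS, where 0 of the 32 summits lay in an exon.

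By number of peaks Col2a1 also ranked high. Beyond 1 kb from the TSS it had 5, 17, 3 and 7 gene-body peaks. Per kb these were 0.172, 0.584, 0.103 and 0.240, against medians of 0.0212, 0.0641, 0.0282 and 0.0703 over 11709 protein-coding genes of at least 10 kb. Col2a1 was at percentiles 98.1, 99.98, 88.5 and 96.1, and only 2 genes were above it in Cho replicate 2. With peaks of a −log10 q-value of at least 5 its percentile in the deletion was 64.3.

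Just past the 3′ end a group of sites had the same high local background. At +29.3 kb, 1 site was in all 4 libraries, with fold enrichments of 6.76, 5.35, 2.57 and 2.29 in the same order and pileups of 15, 309, 16 and 26. In Cho replicate 2 that pileup exceeded the promoter's. Near +30.0 and +31.1 kb WT and the deletion had further peaks of 2.60 to 3.52, and Cho replicate 2 had 1 at +31.1 kb (2.87).

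Upstream, the highest fold enrichments of WT were at -44.8 kb (12.5), at -88.6 kb (11.3) and at -28.8 kb (10.5). Those of the deletion were at -50.7 kb (14.1), -88.7 kb (13.7) and -44.8 kb (12.9). The -88.7 kb site lies at the shared start region of Senp1, a SUMO protease gene, and Pfkm, which encodes muscle phosphofructokinase. It was in all 4 libraries, at 11.4, 17.8, 11.3 and 13.7. The -44.8 and -50.7 kb sites lie in introns of Senp1. At -44.8 kb Cho replicate 2 reached 16.9 with a pileup of 322, and Cho replicate 1 listed its main summit at -44.5 kb (17.3) and a further summit of the same interval at -44728 bases (15.6).

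The -28.8 kb site was the tallest peak of the region in Cho replicate 2. It had a pileup of 471, or 241 times the library background and the 99.8th percentile of the list, with a fold enrichment of 12.3. In WT (chr15:97863834-97864189) the pileup was 27, or 74.9 times, and in the deletion 42, or 67.1 times. Cho replicate 1 had no peak there. RefSeq places the long non-coding RNA gene Gm41395 from -24.5 to -32.1 kb, and 2 summits of Cho replicate 2 lay in it, at -28.8 and -26.2 kb.

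The sites from here to the end of the paragraph were chosen after their values were seen. At -26.2 kb the pileups were 367, 16 and 29, and the local backgrounds were 30.8, 7.66 and 8.46 times that of the library. At -9.8 kb, where the local background was low, fold enrichments were 6.76, 21.3, 9.85 and 10.5. Its WT pileup of 13 was smaller than every WT pileup in the gene body, although its fold enrichment was larger than all of theirs. At -15.6 kb Cho replicate 2 alone was called, at a fold enrichment of 19.3 and a pileup of 139. At -24.4 kb Cho replicate 1 alone had one, at 9.71.

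Downstream, the highest fold enrichments of WT were at +97.4 kb (11.8), +90.3 kb (11.4) and +40.6 kb (9.73), and those of the deletion were at the same sites (12.4, 15.6 and 11.9). The +40.6 kb site is near the start of Tmem106c, a gene for a membrane protein. It was in all 4 libraries, with fold enrichments of 12.2, 17.1, 9.73 and 11.9. The +90.3 kb site lies between genes and was also in all 4, at 19.8, 22.6, 11.4 and 15.6. The +97.4 kb site is in Vdr, which encodes the vitamin D receptor, at 11.8, 10.4, 11.8 and 12.4. It lies near the start of Vdr that RefSeq places at +96.4 kb. Cho replicate 1 listed 2 further summits in its interval there, at +96486 and +96775 bases, with fold enrichments of 7.18 and 8.02.

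Sites were matched across libraries by summit position. Of the 26 WT summits, 11 (42.3%, exact binomial 95% interval 23.4% to 63.1%) had a summit of each other library within 150 bp at the same distance from the TSS. Over 22133 WT peaks near genes of equal length in both builds the share was 42.0%. The promoter is not among the 11, since the summit of Cho replicate 1 lay 161 bp from that of WT. Taken singly, Cho replicate 1 held 11 of the 26 (48.2% over all) and Cho replicate 2 held 21 (77.1% over all). By overlap of at least 1 bp, 16 of 26 WT peaks met a Cho replicate 1 peak (61.5%), against 57.7% of all, and 19 of 38 deletion peaks did (50%), against 43.1%. Without Cho replicate 1 the count was 21 of 26 (80.8%), against 74.3%. All such intervals cover counting error only.

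The shares of WT and of deletion peaks in the region that overlapped each other lay above those of the genome. Both intervals held the genome share. All 26 WT peaks overlapped a deletion peak by at least 1 bp (exact 95% interval 86.8% to 100%), against 95.9% of all WT peaks. Of the 38 peaks called in the deletion, 25 met WT ones (65.8%, 48.6% to 80.4%), against 49.4% of all deletion peaks. The other 13 deletion peaks had fold enrichments of 2.30 to 6.15. The library background was 0.626 tags in the deletion and 0.361 in WT, and the part of this depth in the 13 peaks was not tested.

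No shared site differed between WT and the deletion beyond counting error. The median log2 ratio of deletion to WT, as pileup over library background, was -0.02 over the 26 WT peaks, of which those at -22.4 and -22.0 kb share 1 deletion peak, and -0.01 over 87274 shared peaks of the genome. The ratios ran from -0.53 to 0.55 on the log2 scale, 13 of 26 above 0. None reached a log2 ratio of 1 in either direction, against 3.6% of all shared peaks higher and 1.42% lower in the deletion. The exact 95% interval of the ratio held 1 at all 26 sites, against intervals that left out 1 at 3.34% of all shared peaks.

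In the gene body, the ratio of deletion to WT was 0.925 at the promoter (interval 0.588 to 1.47), 0.695 at +3.3 kb (0.413 to 1.18), 1.01 at +7.6 kb (0.566 to 1.84) and 0.960 at +11.6 kb (0.583 to 1.61). The +3.3 kb site had the lowest log2 ratio of the region, -0.53. It was picked as the highest intronic WT peak, so its ratio is a description. A change smaller than these intervals was not detectable at this depth.

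**Figure D3:**
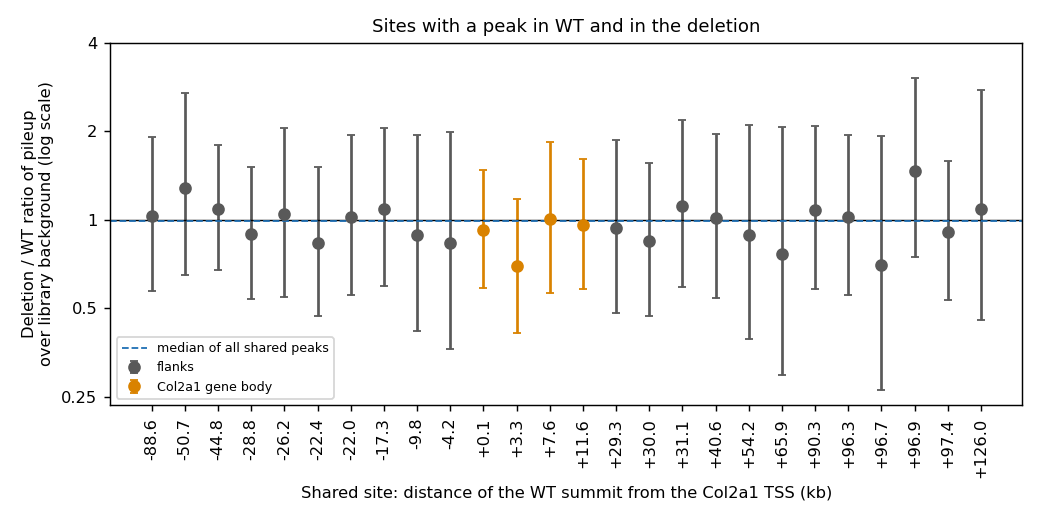
Ratio of deletion to WT summit pileup, each over its library background (log scale), at the 26 shared sites ordered by distance of the WT summit from the TSS; bars are exact 95% intervals for counting error, orange sites lie in the gene body and the dashed line is the median of all shared peaks. Every interval holds 1.

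Genes of the same matrix and its assembly had peaks at their promoters but lower backgrounds. The 5 fibril partners, Col9a1, Col9a2, Col9a3, Col11a1 and Col11a2, code for chains of type IX and XI collagen and all had promoter peaks in Cho replicate 2, WT and the deletion, and 2 of 5 in Cho replicate 1. In the same 3 libraries 5 of 6 matrix partners had a promoter peak, as did Sox9, Sox5 and Sox6 and all 7 genes of procollagen processing. Cho replicate 1 had 2 of 6, 2 of 3 and 7 of 7. Over all protein-coding genes the share with a promoter peak was 58.6%, 64.7%, 62.0% and 67.8%.

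None of these 21 genes reached the local background of Col2a1. The nearest in Cho replicate 2 was Col9a3, at 16.7 times the library background against 31.4 for the highest Col2a1 peak. In WT it was Comp, a cartilage matrix glycoprotein, at 11.3 against 18.6, and in the deletion Sox9, at 10.6 against 20.3. By fold enrichment the Col2a1 promoter, at 5.56 in WT, was below those of Col11a1 (10.8), Matn3 (20.6), Sox9 (9.47) and P4hb (12.2). By pileup over library background Col2a1 was at 91.5 in WT. This was below P4hb (153), Serpinh1 (122), Col11a1 (119), Matn3 (111), Sox9 (103) and P4ha1 (103). It was above Acan (30.5), the gene of the cartilage proteoglycan.

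**Figure D4:**
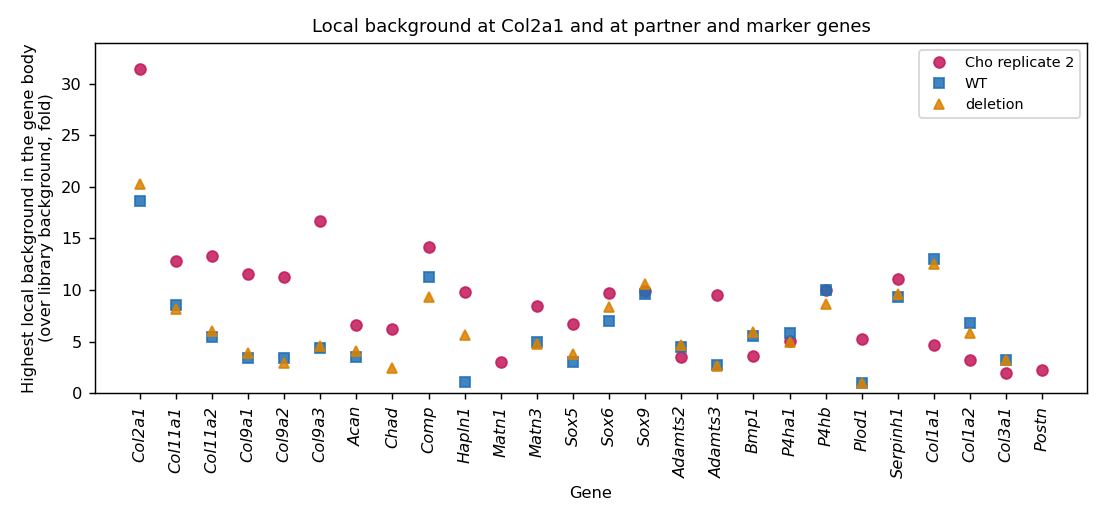
Highest local background of the peaks in each gene body, as fold over the library background, for Col2a1 and for its partner and marker genes with a gene-body peak, in Cho replicate 2, WT and the deletion. Col2a1 is highest in each library (31.4, 18.6 and 20.3), and Col1a1 is higher in WT and the deletion than in Cho replicate 2.

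The genes most like Col2a1 in promoter fold enrichment and peaks per kb were Mbp, Dagla, Dbn1, Loxl2 and Igf2r. Their Euclidean distances to Col2a1 over 8 percentiles, 2 in each of 4 libraries, were 8.42, 9.50, 10.04, 10.7 and 11.1, and the median over 11709 genes was 124. All combine a low promoter rank with a high rank of gene-body peaks, which follows from how they were chosen.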

How the data were processed

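ATAC-Seq was analysed from 4 peak lists, 1 per library. Per the study methods and the submitters' processing notes, the authors used fastp, Bowtie2 2.4.4, Picard (the methods and the notes give different versions), SAMtools 1.9 and MACS2 2.2.4 at a q-value of 0.05. Fold enrichment, as deposited, is the ratio (pileup + 1)/(background + 1) at the summit. Each deposited entry further gives a −log10 p-value, a −log10 q-value and a score, which is 10 times the latter.

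Whole pileups and backgrounds were solved from fold enrichment and p-value under a Poisson model. A solution met both for 99.998% of entries in Cho replicate 1 and 100.0% in each other list. The library background was 1.37 and 1.96 tags in the Cho replicates, 0.361 in WT and 0.626 in the deletion. Tested on simulated data, 99.98% of 4994 WT pileups were recovered, and intervals left out 1 at 95.5% of 200 sites raised by a log2 ratio of 1.5 in the deletion.

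Cho replicate 2 was read with GRCm38 (RefSeq) positions and the others with NCBIM37 (GENCODE). The methods name mm9, but the positions of Cho replicate 2 follow GRCm38. No coordinates were converted, and introns and sites of Cho replicate 2 were placed by distance from the TSS. All 8 RefSeq promoters of the region lay at the same distance in both builds. Overlaps needed at least 1 bp. A promoter peak lay within 1 kb of the TSS. Runx2 and Spi1 were not matched. The blood marker list is not reported here as a whole.

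Named sites were every gene-body site and, on each side, the 3 flank peaks of highest fold enrichment in WT and in the deletion. Members, lists and alternatives were chosen with earlier results of these data known. Alternatives covered stricter q-values, other flanks, overlaps, tolerances and measures. Python 3.11.15, numpy 2.4.6, pandas 2.3.3, scipy 1.17.1 and matplotlib 3.10.9 were used.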

Additional observations from a re-analysis of the deposited data

How the results depend on the processing

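No paired analysis was possible because each genotype has only 1 library. Under the alternatives, 28 values stayed within the spread, or for counts within 1.5 times, and 30 moved.

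With a −log10 q-value of at least 5, the region held 12 peaks in Cho replicate 1 and 22 in the deletion, 81.8% of deletion peaks met a WT peak, against 53.3% of all, and 6 sites were in all 4 libraries. With equal numbers of strongest peaks it held 25 in Cho replicate 2 and 18 in the deletion, with 73.1% of WT peaks shared, below the 82.7% of all WT peaks, and 100% of deletion peaks, against 78.6% of all. Summits within 50 bp gave 3 sites in all 4 libraries, and leaving out Cho replicate 1 gave 21. The median log2 ratio of deletion to WT was 0.073 by fold enrichment, -0.23 by pileup over the median of shared peaks and 0.77 by −log10 q-value, where all shared peaks had medians of 0.28, -0.22 and 0.76. The direction of this ratio thus follows the measure.

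The Cho mean at the promoter was 73.7 as pileup over library background and 28.8 as percentile, and at +3.3 kb 53.9 and 40.1. Leaving out a Cho replicate gave fold enrichments of 4.65 to 5.71 at the promoter and 2.75 to 12.2 at +3.3 kb, where Cho replicate 1 alone sets the high value. For peaks per kb the percentile of Col2a1 over all gene-body peaks was 98.4 for Cho replicate 1, 89.3 for WT and 95.7 for the deletion. Over genes of any length it was 96.2, 99.76, 87.7 and 94.3. With the stricter q-value Cho replicate 1 was at 89.8, WT at 83.9 and the deletion at 64.3. By local background it was 99.94, 99.84 and 99.93 in the 3 libraries that have one. Depth limits the WT and deletion ratios, whose pileups were 9 to 53 tags. The alternatives without Cho replicate 1 and by local background were chosen after seeing the data.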

Other observations

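The +11.6 kb site of intron 16 holds a direct repeat of 17 bases, cggctttctattggtct, starting at bases 61 and 101 of the window printed. A direct repeat of that length or more is in 1.9% of all WT windows, simple repeats included. This was noticed after the values were seen, and no other of the 26 WT windows of the region holds 1 as long.

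The few genes above Col2a1 by median local background were named after their values were seen. They were Myo3a, Sin3a, Per1 and Btd in Cho replicate 2, Myo3a, Brd2, Sin3a, Per1 and Lmna in the deletion, and 7 genes in WT, among them Myo3a, Sin3a and Per1. Col2a1 had 18 gene-body peaks behind its value in Cho replicate 2, and each of those 4 genes had 3 to 6. None is in the lists of cartilage genes used here.

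In an intron of Vdr at +117.1 kb, Cho replicate 1 had its highest fold enrichment of the region, 25.3 with a pileup of 59. The deletion had a peak there of 6.15 with a pileup of 9, and WT and Cho replicate 2 had none. At +126.0 kb the order was the other way, with 24.7 in Cho replicate 2, 6.89 in WT, 10.4 in the deletion and no peak in Cho replicate 1. RefSeq also places the non-coding gene Gm46536 inside Col2a1, from +7.0 to +13.3 kb, and 4 summits of Cho replicate 2 lay in it.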
